A study of Mus musculus with 6 samples.

Results

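The 37 genes described here encode ATF4 and the working parts of the unfolded protein response, and they were picked by gene symbol from the 23420 genes of the count table. Their levels were measured by RNA sequencing of the mouse lens transition zone at E14.5, a stage of the embryo at which fibre cells are being added. The zone is the rim of the lens epithelium, where cells stop dividing and lengthen to become fibres. The mutant group (3 libraries) carried Le-Cre, null alleles of Etv4 (Etv4-/-) and floxed alleles of Etv5 (fl/fl) and Etv1 (fl/fl). The control group (3 libraries) carried Le-Cre alone, so both groups have the transgene, although the sample titles call the controls wild type. Le-Cre is a Pax6-enhancer transgene that makes Cre recombinase in the surface ectoderm from which the lens forms. Embryos of both groups were of a mixed strain background. Whether a library came from 1 embryo or from pooled embryos is not given in the sources used here, so p-values measure only the spread between these libraries. Of the 37 genes, 35 had enough reads to be tested, and Trib3 and Chac1 did not. The comparison asks whether this stress pathway differs when the 3 ETS factors of the Pea3 family are removed, all of which act downstream of fibroblast growth factor signalling.

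The unfolded protein response adjusts the protein-folding capacity of the endoplasmic reticulum (ER). PERK (Eif2ak3), IRE1 (Ern1) and ATF6 sense unfolded protein in the ER membrane. PERK phosphorylates the translation factor eIF2alpha, which lowers protein synthesis but lets Atf4 mRNA be translated, so much of ATF4's regulation does not show in its mRNA. ATF4 then switches on genes for amino acid supply and, under lasting stress, Ddit3 (CHOP). IRE1 splices Xbp1 mRNA, and ATF6 is released by proteases in the Golgi. Spliced XBP1 and cleaved ATF6 raise chaperones and the ER-associated degradation (ERAD) machinery, which removes misfolded proteins. Lens fibres make crystallins in the cytosol but also large amounts of membrane proteins through the ER. Gene counts measure neither splicing of Xbp1 nor phosphorylation or cleavage of the sensors.

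The DNA elements through which these factors act are shown as a description of the genes. The genes were picked as members of this pathway, so their shares of these elements are no separate evidence for it. The shares over all genes come from a set that was not matched to them. RefSeq promoters (assembly GRCm38.p6, 250 bases before the start to 50 after it) were found for 33 of the 37 genes (the others are Atf6, Eif4ebp1, Manf and Ppp1r15b), and both strands were searched. The ER stress response element (ERSE, CCAAT and CCACG with 9 bases of any kind between them), bound by ATF6 with the factor NF-Y, was present in 8 of the 33 genes (24.2%), against 37 of 27025 genes in all (0.137%). ERSE-II (ATTGG and CCACG with 1 base of any kind between them) was present in 2 of the 33 (6.06%), against 12 genes in all (0.0444%). The core of the XBP1 and ATF6 element UPRE (TGACGTGG) was in none of the 33, against 193 genes in all (0.714%). The amino acid or CHOP-type element of ATF4 (CARE, TGATGNAA) was present in 5 of the 33 (15.2%), against 1219 genes in all (4.51%). In the sequences below the fixed letters of the motif are in capitals, with 5 flanking bases on either side, read 5′ to 3′ on the strand that carries the motif. The 9 ERSE matches lie in the genes of 6 chaperones and folding enzymes, 1 cochaperone and 1 ERAD ligase.
Hspa5, chr2:34772020-34772048, plus strand: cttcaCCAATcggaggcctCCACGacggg
Hsp90b1, chr10:86705633-86705661, minus strand: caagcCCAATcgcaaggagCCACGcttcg
Hsp90b1, chr10:86705528-86705556, plus strand: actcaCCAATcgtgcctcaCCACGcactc
Calr, chr8:84847070-84847098, plus strand: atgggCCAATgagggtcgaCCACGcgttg
Canx, chr11:50325795-50325823, minus strand: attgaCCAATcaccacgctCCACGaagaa
Pdia6, chr12:17266486-17266514, plus strand: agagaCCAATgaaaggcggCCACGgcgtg
Dnajc3, chr14:118937822-118937850, plus strand: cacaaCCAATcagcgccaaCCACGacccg
Creld2, chr15:88819515-88819543, minus strand: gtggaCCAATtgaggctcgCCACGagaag
Syvn1, chr19:6046527-6046555, plus strand: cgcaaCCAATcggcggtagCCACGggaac
The ERSE-II matches lie in Herpud1, before the start, and in Dnajb11, just after it.
Herpud1, chr8:94386372-94386392, plus strand: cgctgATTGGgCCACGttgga
Dnajb11, chr16:22857847-22857867, plus strand: cggcgATTGGcCCACGcctgg
The CARE matches lie in Chac1, Trib3, Asns, Nupr1 and, beside its ERSE-II, again in Herpud1.
Chac1, chr2:119351044-119351061, minus strand: aggagTGATGcAAcggca
Trib3, chr2:152344034-152344051, plus strand: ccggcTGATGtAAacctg
Asns, chr6:7693220-7693237, minus strand: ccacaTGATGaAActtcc
Nupr1, chr7:126625568-126625585, plus strand: ctgtcTGATGcAAtctgg
Herpud1, chr8:94386312-94386329, minus strand: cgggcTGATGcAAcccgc
Herpud1 had the lowest p of the 35 tested genes but did not pass in edgeR with all libraries. The 250 bases before its start are given whole (plus strand, chr8:94386179-94386428). The first capitals mark the CARE on the opposite strand and the second the ERSE-II.
Herpud1 promoter: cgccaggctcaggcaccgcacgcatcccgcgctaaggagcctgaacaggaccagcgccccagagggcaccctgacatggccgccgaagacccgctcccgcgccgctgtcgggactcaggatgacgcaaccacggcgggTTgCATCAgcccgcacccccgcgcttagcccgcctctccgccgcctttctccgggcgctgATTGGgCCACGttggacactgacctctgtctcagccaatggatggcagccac
A match describes these letters only, and neither binding nor use of the site was measured.

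Library totals lay between 13364742 and 17301168 counts, so 1 count stood for 0.0578 to 0.0748 CPM (counts scaled to library size) before the TMM scaling that all CPM values below include. The 16 crystallin genes took 21.7%, 32.2% and 19.5% of counts in mutant libraries 1, 2 and 3, and 37.6%, 30.2% and 21.8% in control libraries 1, 2 and 3. Lens identity was clear from the markers: 10 fibre markers summed to between 48489 and 105771 CPM in mutant libraries and between 59519 and 154241 CPM in control libraries. The 6 epithelial markers summed to between 811 and 1070.0 CPM in mutant libraries, against 435 to 1084 CPM in control libraries. Neural retina markers summed to at most 1.42 CPM in any library, 6 markers of the pigment epithelium to between 3.00 and 6.51 CPM in mutant libraries and between 3.82 and 9.12 CPM in control libraries (with Tyr and Rpe65 at 0), and 7 of periocular mesenchyme to at most 15.7 CPM in any library. The 6 markers of vascular endothelium summed to 23.2 to 56.4 CPM in mutant libraries, against 33.0 to 44.7 CPM in control libraries, and 6 macrophage markers summed to 4.04 to 22.8 CPM in mutant libraries, against 1.05 to 7.62 CPM in control libraries. Etv1 fell in mutant libraries (log2 fold change -1.11 ± 0.21 SE, adjusted p = 0.0319 in edgeR's quasi-likelihood test), Etv5 lay at -0.93 ± 0.19 (adjusted p = 0.0503) and Etv4 at 0.64 ± 0.36 (adjusted p = 0.427). Which exons the alleles remove is not given in the sources used here, so these counts over whole genes do not by themselves check the labels. Mutant library 1 had 711 Xist reads and 2 Ddx3y reads. The other libraries had at most 3 Xist reads and at least 521 Ddx3y reads, so the sex of mutant library 1 differs from theirs.

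None of the 35 tested genes passed an adjusted p of 0.05 in edgeR, whether higher or lower in mutant libraries, against 272 of the 12257 genes tested (2.22%; 140 higher, 1.14%, and 132 lower, 1.08%). At an unadjusted p under 0.05 there were 5 of the 35 (14.3%), against 1985 of all genes (16.2%; 7.92% higher and 8.27% lower). Nupr1, Eif4ebp1 and Ppp1r15b were those with higher means in mutant libraries, and Herpud1 and Atf6 those with lower means. The differences were small: 32 of the 35 (91.4%) were under 0.5 in size on the log2 scale, against 73.5% of all genes, and they ran from -0.82 for Ern1 to 0.78 for Nupr1. Their median was -0.06, with 16 positive and 19 negative, beside a median of 0.00 for all genes. For 25 of the 35 (71.4%, against 59.8% of all genes) the 95% interval of the log2 fold change lay within 1 in either direction, so a 2-fold change lies outside it. Groups did not overlap for 7 of the 35 (20.0%), 4 higher and 3 lower in mutant libraries, against 22.7% of all genes (11.4% higher and 11.3% lower). The share of these genes past any of these lines was therefore close to or below that of all genes. The 35 genes also had higher levels, with a median log2(CPM + 0.5) of 6.16 to 6.51 across libraries, against 4.53 to 4.64 for all genes. The part of level in these shares was not tested. In bulk tissue, fewer cells of a type and less RNA per cell cannot be told apart.

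**Figure D1:**
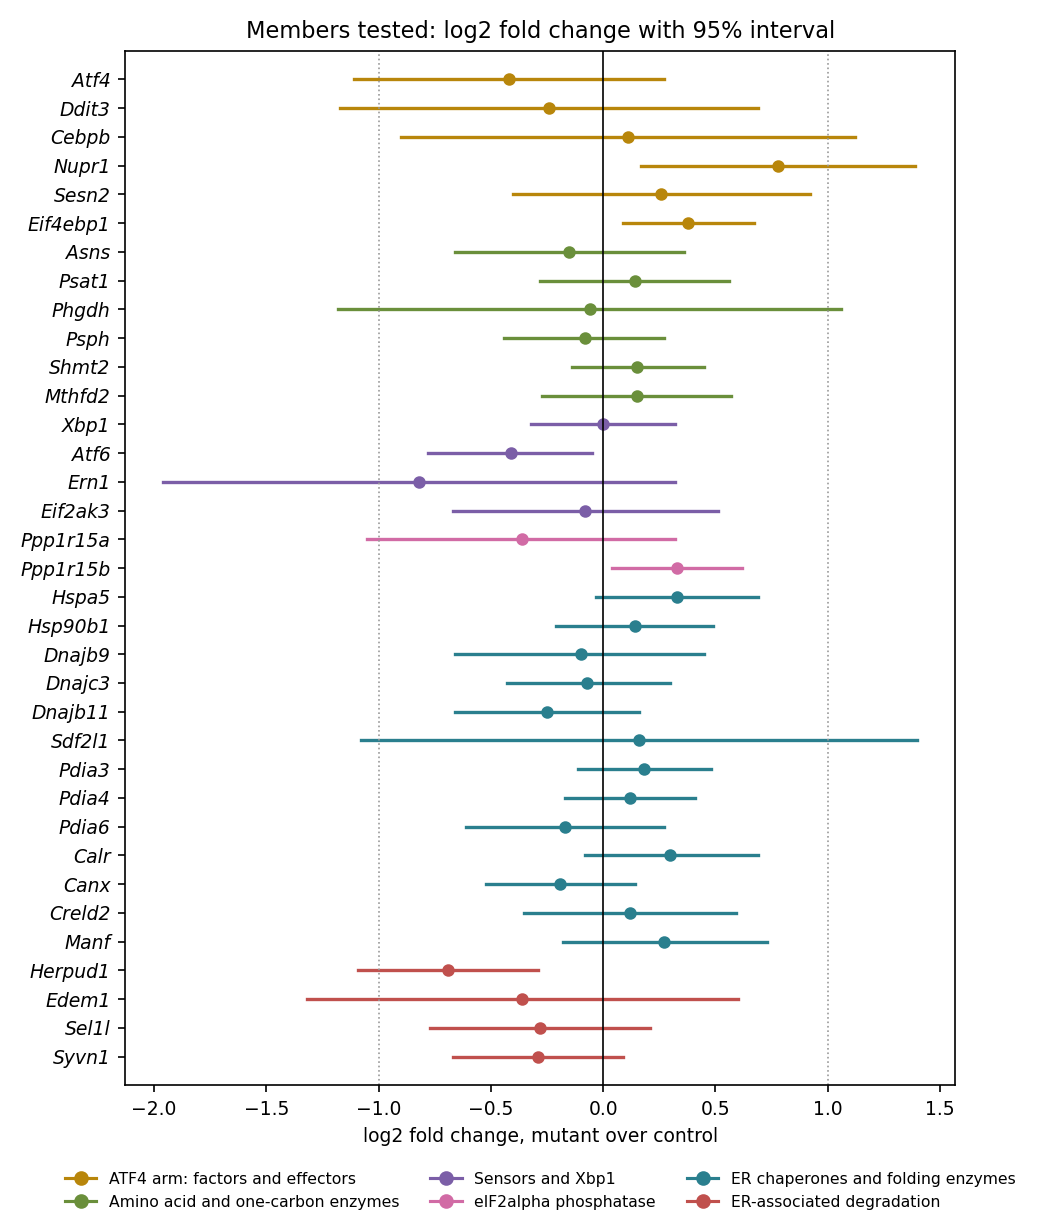
Log2 fold change of mutant over control libraries (x axis) with its 95% interval for each of the 35 tested genes (y axis), coloured by role; 3 libraries in each group. Every point lies between -0.82 and 0.78, and the intervals of Nupr1, Eif4ebp1, Ppp1r15b, Atf6 and Herpud1 leave out 0 before adjustment.

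Among the ATF4 arm's transcription factors and effectors, 6 were tested and none passed. Their median was 0.19, with 4 positive and 2 negative, and it was -0.04 without control library 1 and 0.32 without control library 2. Atf4 mRNA, the factor at the head of the arm, stood at 83.0, 94.3 and 40.3 CPM in mutant libraries, against 113, 93.4 and 84.2 CPM in control libraries. Mutant library 3 was the lowest of the 6 and the groups overlapped (log2 fold change -0.42 ± 0.30 SE, 95% interval -1.11 to 0.27, adjusted p = 0.537). Without mutant library 3 the difference was -0.13, and without mutant library 2 it was -0.65. Ddit3 encodes CHOP, which acts late in unresolved stress, and it had 6.75, 9.57 and 4.09 CPM in mutant libraries and 9.04, 10.3 and 4.71 CPM in control libraries. Library 3 of each group was low, and the group difference of -0.24 ± 0.41 had an interval from -1.17 to 0.69 (adjusted p = 0.819). Cebpb, another leucine zipper factor of the response, was at 3.88 ± 0.650 CPM in mutant libraries and 3.58 ± 1.64 CPM in control libraries (SD, n = 3 each).

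Trib3, a pseudokinase that ATF4 and CHOP induce, was near the limit of detection, with 7, 10 and 17 counts in mutant libraries and 3, 1 and 3 counts in control libraries. Each mutant library held more than each control library, but without a filter on low counts edgeR's adjusted p was 0.432. Chac1 degrades glutathione and is also induced through ATF4, and it had 5, 0 and 6 counts in mutant libraries against 7, 15 and 15 counts in control libraries. Its order was the opposite of Trib3's, and its adjusted p without the filter was 0.523. These genes, which mark an active ATF4 and CHOP programme in many mouse cells, were thus barely detected in either group.

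Nupr1, Eif4ebp1 and the genes Ppp1r15a, Ppp1r15b, Pdia3, Syvn1, Phgdh, Sdf2l1, Edem1 and Pdia6 below are given by library because of their values, and were chosen after these were seen. Nupr1 encodes a small stress-induced chromatin protein and had the largest positive difference of the 35. It stood at 383, 581 and 328 CPM in mutant libraries, against 332, 216 and 205 CPM in control libraries. Mutant library 3 lay just under control library 1, so the groups overlapped (log2 fold change 0.78 ± 0.26 SE, interval 0.17 to 1.39, adjusted p = 0.197). Library 2 of the mutants and library 1 of the controls, the highest within their groups, also had the highest crystallin shares there. In other tests of the same counts the adjusted p of Nupr1 was 0.0588 (DESeq2) and 0.0503 (limma voom with quality weights). In the authors' deposited table it was 0.0610, so Nupr1 did not pass in any of these. With crystallin share as a covariate, an alternative chosen after seeing the data, Nupr1 reached 1.04 with an adjusted p of 0.00110. That fit called 3 of the 35 (8.57%), Nupr1 higher and Herpud1 and Edem1 lower in mutant libraries, against 776 of all genes (6.33%; 2.86% higher and 3.48% lower). Eif4ebp1 encodes the translation repressor 4E-BP1, an ATF4 target, and had 109, 111 and 117 CPM in mutant libraries and 80.7, 96.8 and 82.0 CPM in control libraries. All 3 mutant libraries were above all 3 controls, with tight mutant values, and the difference of 0.38 ± 0.13 (interval 0.09 to 0.67) had an adjusted p of 0.189. Sesn2, an inhibitor of mTORC1 signalling, lay at 0.26 ± 0.29.

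The enzymes of serine, one-carbon and asparagine metabolism that ATF4 controls lay close together, with a median of 0.04 over 6 genes, 3 positive and 3 negative. Asns makes asparagine and carries the CARE shown above. It had 44.4, 34.5 and 31.5 CPM in mutant libraries, against 50.2, 42.2 and 29.9 CPM in control libraries, and the groups overlapped (-0.15 ± 0.22, interval -0.66 to 0.36, adjusted p = 0.800). Psat1 (0.14 ± 0.18) and Psph (-0.08 ± 0.16), the later steps of serine synthesis, and the mitochondrial folate enzymes Shmt2 (0.15 ± 0.13) and Mthfd2 (0.15 ± 0.18) were all under 0.2 in size. Psph shares 26.1% of its exonic bases with Cct6a on the opposite strand, and the library kit does not mark strand. Phgdh, the first step of serine synthesis, varied far more within groups than between them, with 433, 185 and 623 CPM in mutant libraries and 217, 499 and 576 CPM in control libraries. Its interval, from -1.18 to 1.06 around -0.06, is one of the widest of the 35.

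All 4 genes of the sensor group had estimates at or below 0, with a median of -0.25, and none passed. Xbp1 took the other sign under 3 of the alternatives and Eif2ak3 under 2. Atf6 had 24.5, 28.6 and 23.2 CPM in mutant libraries, against 33.3, 35.4 and 32.9 CPM in control libraries. Every mutant library lay below every control library, and values within each group were close (25.4 ± 2.82 CPM in mutant libraries and 33.8 ± 1.37 CPM in control libraries, SD, n = 3 each). The log2 fold change was -0.41 ± 0.16 (interval -0.78 to -0.05, unadjusted p = 0.0299 and adjusted p = 0.249 in edgeR), and over 14 alternatives it stayed between -0.51 and -0.35 with an adjusted p of 0.0704 at the lowest. Ern1, at 2.18, 2.72 and 0.981 CPM in mutant libraries and 2.77, 2.92 and 4.66 CPM in control libraries, was the scarcest sensor. Its groups also did not overlap in CPM, but mutant library 2 and control library 1 were all but equal. Raw counts were 43, 33 and 18 in mutant libraries, against 37, 48 and 84 in control libraries, and these overlapped. Library 3 of each group lay away from the others and the interval is wide (-0.82 ± 0.50, interval -1.96 to 0.32, adjusted p = 0.462). Eif2ak3 had 7.36, 6.84 and 7.36 CPM in mutant libraries, against 7.85, 6.07 and 8.87 CPM in control libraries (-0.08 ± 0.26, interval -0.67 to 0.51, adjusted p = 0.915). Xbp1 had 104, 121 and 130.1 CPM in mutant libraries and 108, 131 and 115 CPM in control libraries. Its means were 118 ± 13.3 CPM in mutant libraries and 118 ± 11.5 CPM in control libraries, and the interval of -0.32 to 0.32 is among the narrowest here, for total Xbp1 mRNA whether spliced or not.

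Both genes for the regulatory subunits that bring protein phosphatase to eIF2alpha were measured, and neither passed. Ppp1r15a (GADD34), the stress-induced subunit, had 19.1, 15.9 and 11.2 CPM in mutant libraries, against 27.9, 17.0 and 14.7 CPM in control libraries, with overlap (-0.36 ± 0.30, adjusted p = 0.592). Ppp1r15b (CReP), the constitutive subunit, had 93.9, 103 and 98.4 CPM in mutant libraries, against 81.5, 70.0 and 83.8 CPM in control libraries. All mutant libraries were above all controls (0.33 ± 0.13, interval 0.04 to 0.62, unadjusted p = 0.0308 and adjusted p = 0.251 in edgeR). The difference between these estimates was not tested.

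**Figure D2:**
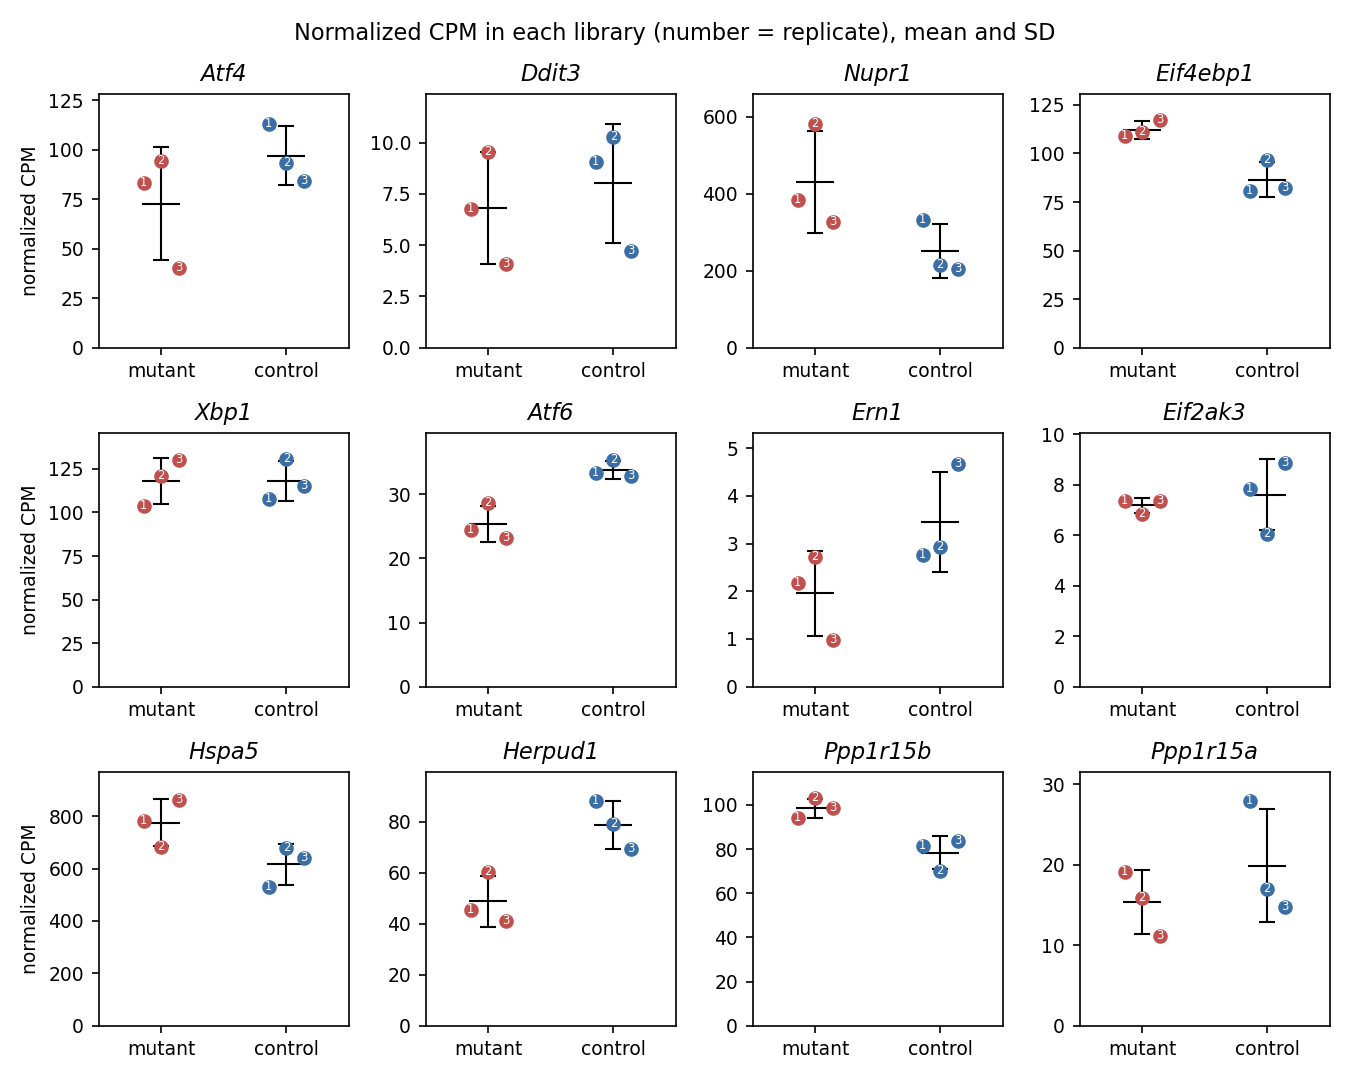
Normalized CPM (y axes, starting at 0) of 12 genes in each mutant and control library (numbered points), with the mean and SD of each group. Eif4ebp1, Ppp1r15b and Hspa5 lie higher in every mutant library and Atf6, Ern1 and Herpud1 lower, while Atf4, Ddit3, Nupr1, Xbp1, Eif2ak3 and Ppp1r15a overlap.

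None of the 13 ER chaperones, cochaperones and folding enzymes passed. Every one was under 0.5 in size, 8 were positive and 5 negative, and their median was 0.12. For 12 of the 13 the interval lay within 1 in either direction, Sdf2l1 being the exception. Their summed level was 4886, 5260.2 and 5171 CPM in mutant libraries and 4567, 4955 and 4909 CPM in control libraries, so mutant library 1 lay below controls 2 and 3. Hspa5 encodes BiP, the ER Hsp70 whose release activates the sensors, and it had 783, 682 and 861 CPM in mutant libraries, against 529, 679.6 and 639.9 CPM in control libraries. The groups did not overlap, but mutant library 2 and control library 2 were all but equal (0.33 ± 0.16, interval -0.03 to 0.69, adjusted p = 0.340). Pdia3, a disulfide isomerase for glycoproteins, had 778, 744 and 731 CPM in mutant libraries and 606, 680.1 and 701 CPM in control libraries, again without overlap (0.18 ± 0.13, adjusted p = 0.538).

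The lectin chaperones that bind glycoproteins lay on opposite sides of 0, Calr at 0.30 ± 0.17 (interval -0.08 to 0.69, adjusted p = 0.422) and Canx at -0.19 ± 0.14 (interval -0.52 to 0.14, adjusted p = 0.562). Hsp90b1, the ER Hsp90, stood at 0.14 ± 0.15, and the isomerase Pdia4 at 0.12 ± 0.13. Pdia6, an isomerase that attenuates IRE1, had 703, 1058 and 779 CPM in mutant libraries and 1082, 944 and 829.9 CPM in control libraries, and was highest in the library of each group with the highest crystallin share (-0.17 ± 0.19). The BiP cochaperones Dnajb9 (-0.10 ± 0.24), Dnajc3 (-0.07 ± 0.16) and Dnajb11 (-0.25 ± 0.18) all had negative estimates, with intervals that include 0. Sdf2l1, which works with Dnajb11, had 27.7, 16.4 and 42.1 CPM in mutant libraries and 8.82, 30.7 and 37.8 CPM in control libraries. This spread within groups gave the widest interval of the 35, from -1.08 to 1.40. Creld2 (0.12 ± 0.21) and the secreted factor Manf (0.27 ± 0.20), both induced by ER stress, also overlapped between groups. Hsp90b1 shares 14.7% of its exonic bases with a pseudogene on the opposite strand.

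The 4 ERAD genes were the other group with no positive estimate, with a median of -0.32. Herpud1 encodes a ubiquitin-like membrane protein that organises the retrotranslocation complex, and it was the gene with the lowest p of the 35. It had 45.2, 60.1 and 41.2 CPM in mutant libraries, against 88.0, 79.2 and 69.2 CPM in control libraries. The highest mutant library lay below the lowest control, with means of 48.8 ± 9.98 CPM in mutant libraries and 78.8 ± 9.38 CPM in control libraries (SD, n = 3 each). The log2 fold change was -0.69 ± 0.18 (interval -1.09 to -0.29, a fold of 0.619), with an unadjusted p of 0.00386 and an adjusted p of 0.0937 in edgeR's test, so it did not pass there.

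Herpud1 did pass in other tests of the same counts. Its adjusted p was 0.0222 in DESeq2, where 821 of 12254 genes passed (6.70%; 3.27% higher and 3.43% lower), and 0.0142 in limma voom with quality weights, where 801 passed (6.54%; 3.17% higher and 3.36% lower). Herpud1 was the only gene of the 35 to pass in either test (2.86%), a smaller share than that of all genes. In the authors' deposited table its log2 fold change was -0.68 with an adjusted p of 0.0250, and it was the only one of the 37 below 0.05 there, beside 833 of 13644 genes (6.11%; 3.14% lower). The estimate was negative under all 14 alternatives, from -0.87 to -0.53, with adjusted p between 0.0142 and 0.296. Without mutant library 2, which had the highest Herpud1 level of the mutants, it was -0.87 with an adjusted p of 0.0240, in a fit that called 3.78% of all genes (1.68% higher and 2.10% lower). Within each group the order of Herpud1 was that of the crystallin share, and mutant libraries 1 and 3 (45.2 and 41.2 CPM at shares of 21.7% and 19.5%) lay below control library 3 (69.2 CPM at 21.8%). With the share as a covariate the difference was -0.53 (adjusted p = 0.0364).

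The remaining ERAD genes overlapped between groups. Syvn1 encodes the ubiquitin ligase HRD1, whose complex HERPUD1 joins, and it had 41.1, 52.1 and 36.6 CPM in mutant libraries and 55.6, 54.7 and 48.3 CPM in control libraries (-0.29 ± 0.17, interval -0.67 to 0.09, adjusted p = 0.437). Sel1l, the partner of HRD1, stood at 69.4 ± 15.6 CPM in mutant libraries and 84.3 ± 18.4 CPM in control libraries (-0.28 ± 0.21). Edem1, which trims mannose from misfolded glycoproteins, had 19.8, 9.65 and 20.7 CPM in mutant libraries and 12.3, 18.7 and 33.3 CPM in control libraries (-0.36 ± 0.41). Its direction depends on control library 3, without which the estimate was 0.11, and with crystallin share as a covariate it was -0.81 (adjusted p = 0.0311). Summed over the 4 genes, levels were 184, 173 and 177 CPM in mutant libraries, against 234, 223 and 256 CPM in control libraries, and the groups did not overlap. Much of this gap is Herpud1 itself, with means of 48.8 CPM in mutant libraries and 78.8 CPM in control libraries. Among all single genes 22.7% did not overlap either. Herpud1, Sel1l and Syvn1 kept a negative sign under all 14 alternatives.

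Set beside the promoter elements, the differences showed no common direction among the ERSE genes. Of these 8, 4 were positive and 4 negative, from -0.29 for Syvn1 to 0.33 for Hspa5, with a median of 0.02. Both ERSE-II genes were negative, Herpud1 at -0.69 and Dnajb11 at -0.25. Of the 5 CARE genes 3 were tested, and they ran from -0.69 for Herpud1 through -0.15 for Asns to 0.78 for Nupr1.

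Levels between genes were compared per kilobase of exon, using exon unions of a GENCODE annotation that may differ from the authors'. The most abundant of the 37 was Nupr1, at 519.8 CPM per kilobase in mutant libraries and 303 in control libraries, followed in mutant libraries by Pdia6 at 389, Calr at 339, Pdia3 at 271, Hsp90b1 at 235, Phgdh at 218 and Hspa5 at 207. In control libraries Pdia6 led at 438 CPM per kilobase, before Nupr1 and Calr at 275. Atf4 stood at 42.1 CPM per kilobase in mutant libraries and 56.2 in control libraries, and Xbp1 at 49.5 in both. The sensors stood lower than these: Atf6 at 3.51 CPM per kilobase in mutant libraries and 4.67 in control libraries, Eif2ak3 at 1.48 in mutant libraries and 1.57 in control libraries, and Ern1 at 0.241 in mutant libraries and 0.422 in control libraries.

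Much of the variation of these genes lay within groups. The pooled SD within groups had a median of 0.24 on the log2 scale over the 35, against 0.27 over all genes, and the group difference exceeded it for 14 of the 35. Mutant library 2 and control library 1, which had the highest crystallin shares of their groups, were both the lowest of their group for Psat1, Phgdh, Shmt2, Hspa5, Sdf2l1, Creld2, Manf and Edem1, that is 8 of 35 (22.9%), against 22.0% of all genes. They were both the highest of their group for Atf4, Nupr1, Dnajb11, Pdia6, Herpud1 and Syvn1, 6 of 35 (17.1%), against 21.5% of all genes. These shares are close to those of all genes. Fibre markers summed to 105771 CPM in mutant library 2 and 154241 CPM in control library 1, the highest of their groups, while the epithelial factor Foxe3 was lowest there, at 39.7 CPM in mutant library 2 and 51.2 CPM in control library 1. The part of fibre and epithelial content in the values of single genes was not tested beyond the covariate.

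**Figure D3:**
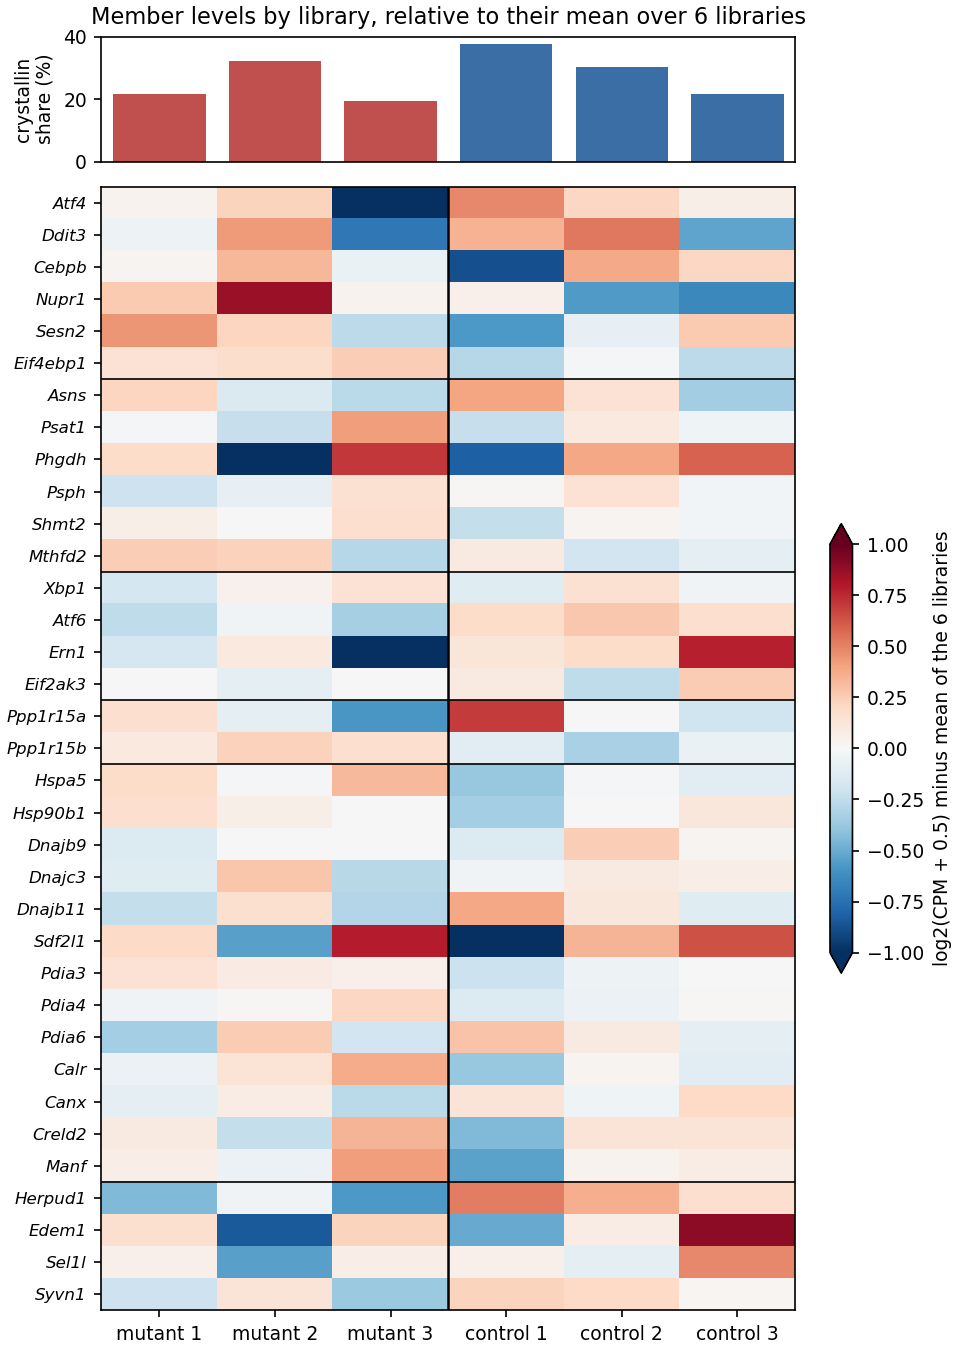
Colours give log2(CPM + 0.5) of each tested gene (rows, in blocks by role) minus its mean over the 6 libraries (columns), and bars above give the crystallin share of counts in percent. Phgdh, Sdf2l1 and Edem1 are low in mutant library 2 and control library 1, and Herpud1 and Atf6 are lower in the mutant columns.

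**Figure D4:**
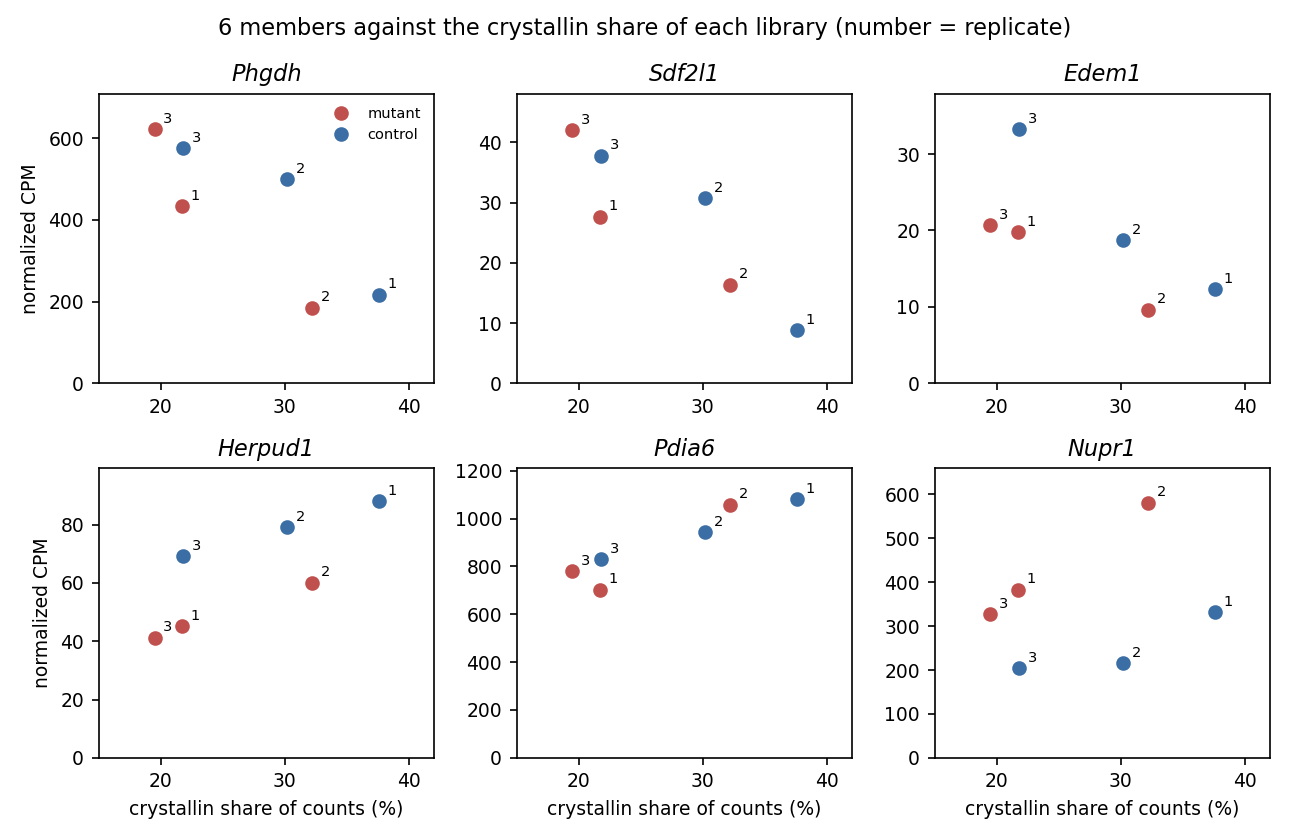
Normalized CPM (y axes, starting at 0) of 6 genes against the crystallin share of counts (x axes, percent) in the mutant and control libraries (points numbered by replicate). Phgdh, Sdf2l1 and Edem1 are lowest, and Pdia6 highest, in mutant library 2 and control library 1 within each group; Herpud1 lies lower in mutant libraries at like shares.

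The wider pathway was followed in 8 further gene lists, chosen with earlier results of these data known. In the list of other ATF4 targets, amino acid transporters and tRNA charging enzymes, 1 of 38 tested genes rose and none fell in edgeR with all libraries. Over all genes 1.14% rose and 1.08% fell there. In the list 17 estimates were positive and 21 negative, with a median of -0.03. In DESeq2 3 were called (6.70% of all genes), Slc7a11 higher and Slc1a4 and Slc38a2, transporters of neutral amino acids, lower in mutant libraries. The same 3 were called with the covariate (6.33% of all genes). In voom (6.54%) and in edgeR without mutant library 2 (3.78%) 3 were also called. Slc38a2 was not among them, with adjusted p of 0.0823 in voom and 0.153 in edgeR without mutant library 2. The gene that rose was Slc7a11, which encodes the cystine transporter xCT and is a target of NRF2 as well as ATF4. It had 161, 232 and 224 CPM in mutant libraries, against 3.81, 8.50 and 18.8 CPM in control libraries, far apart in every library (4.29 ± 0.53, adjusted p = 0.00843), although without control library 2 the adjusted p was 0.0580 at 4.17. None of the 11 eIF2 kinases and eIF2 or eIF2B subunits passed (7 positive, 4 negative, median 0.05), and all 11 intervals lay within 1 in either direction. The lowest p there belonged to Eif2s3x (0.33 ± 0.23) and Eif2b1 (0.16 ± 0.12). Eif2s3x is X-linked, escapes inactivation in mice and was highest in mutant library 1, the library with 711 Xist reads.

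Of 15 other transducers and genes of ATF6 processing, 1 fell and none rose in edgeR with all libraries, against 1.08% of all genes lower and 1.14% higher. The median was -0.22 (7 positive, 8 negative). Unadjusted p was under 0.05 for 6 of the 15, 1 higher and 5 lower in mutant libraries. Over all genes that share was 16.2% (7.92% higher and 8.27% lower). The gene that passed after adjustment was Mbtps2. It encodes the Golgi protease that makes the final cut in ATF6 and also frees the sterol regulator SREBP. It had 197, 137 and 192 raw counts in mutant libraries, against 815, 1019 and 354 in control libraries. In CPM this is 10.6 ± 0.657 in mutant libraries (SD, n = 3), against 60.9, 61.9 and 19.6 in control libraries. Control library 3 lay much nearer to the mutants than the other controls did, and the groups did not overlap (-2.16 ± 0.41, interval -3.12 to -1.20, adjusted p = 0.0432). The call is at the edge of the threshold: the estimate stayed between -2.54 and -1.67, but the adjusted p was 0.0908 without control library 1, 0.154 without control library 2, 0.177, 0.0716 and 0.181 without mutant libraries 1, 2 and 3, and 0.00170 without control library 3. In the GENCODE annotation 36.1% of the exonic bases of Mbtps2 are shared with Yy2 on the same strand, so reads of these genes may have been split or lost in counting. Yy2 had 132, 74 and 108 raw counts in mutant libraries, against 125, 195 and 193 in control libraries. The part of this overlap in the difference was not tested. Of the 15 genes, DESeq2 called 1 (6.70% of all genes), which was Mbtps2. In voom 1 of the 15 was also called (6.54% of all genes), but another gene, since Mbtps2 had an adjusted p of 0.0553 there. With the covariate 2 of the 15 were called (6.33% of all genes), Mbtps2 among them (adjusted p = 0.0231).

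None of 27 other ER folding genes passed in edgeR with all libraries (10 positive, 17 negative, median -0.07), while 1 was called in DESeq2 (6.70% of all genes), in voom (6.54%), with the covariate (6.33%) and without mutant library 2 (3.78%). The lowest p there belonged to Dnajc1, an ER membrane J protein, with 29.3, 49.0 and 20.9 CPM in mutant libraries and 97.1, 79.9 and 67.5 CPM in control libraries, without overlap (-1.31 ± 0.30, adjusted p = 0.0802 in edgeR and 9.2e-04 in the authors' deposited table), and to Tmx1, a membrane thioredoxin (-0.50 ± 0.14, adjusted p = 0.131). None of 22 other ERAD genes passed in edgeR (8 positive, 14 negative, median -0.06), with Edem3 at -0.49 ± 0.21 and the lectin gene Erlec1 at -0.72 ± 0.32. None of 33 genes of ER translocation, glycosylation and COPII transport passed in edgeR (14 positive, 19 negative, median -0.04), against 1 in voom (6.54% of all genes). There Lman1, a cargo receptor, lay at -0.37 ± 0.12 and Sec11c, of the signal peptidase, at -0.96 ± 0.31.

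No cytosolic or mitochondrial folding gene passed in edgeR with all libraries. Of 15 cytosolic heat shock genes 11 were positive and 4 negative, with a median of 0.13, and the lowest p belonged to Dnajb1, the Hsp40 partner of Hsp70, at 84.6, 94.3 and 83.4 CPM in mutant libraries, against 197, 147 and 109 CPM in control libraries (-0.79 ± 0.21, adjusted p = 0.100 in edgeR and 0.0189 in the authors' deposited table). In this list 1 gene was called in DESeq2 (6.70% of all genes), in voom (6.54%) and in edgeR without control library 3 (142 genes in all). The groups of Dnajb1 did not overlap, and Hsph1, an Hsp110, lay in the other direction at 0.33 ± 0.13. Of 10 mitochondrial chaperones and proteases 7 were positive and 3 negative, with a median of 0.08, and the lowest p belonged to the protease Htra2 (0.36 ± 0.17) and the chaperonin Hspd1 (0.18 ± 0.12).

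**Figure D5:**
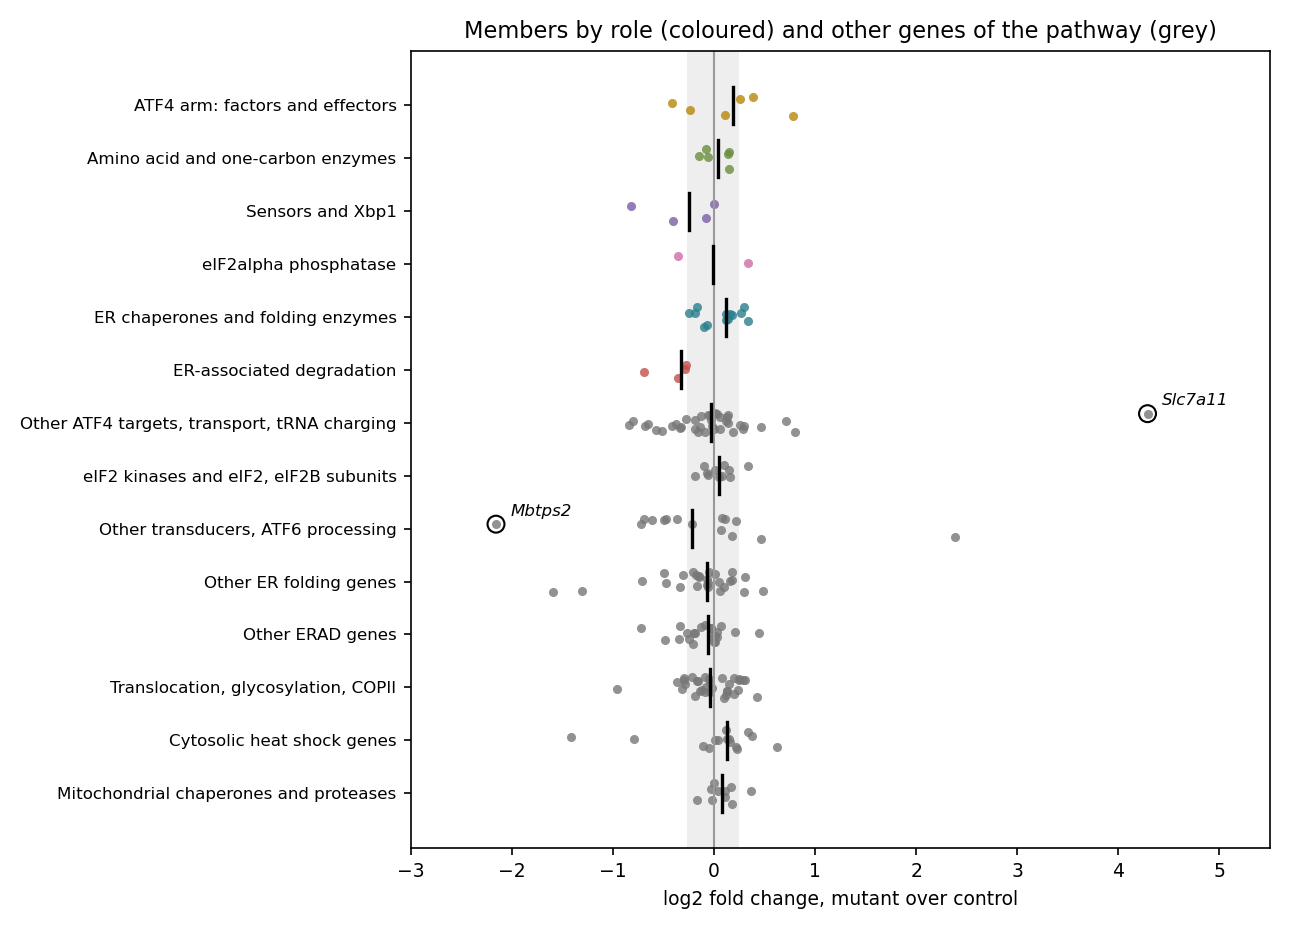
Log2 fold change of mutant over control libraries (x axis) for the genes of each role (coloured points) and of 8 further lists (grey points); black bars are medians, the grey band spans the quartiles of all tested genes (-0.26 to 0.24), and vertical scatter is for visibility. Slc7a11 and Mbtps2, ringed, are the only genes shown that passed an adjusted p of 0.05 in edgeR with all libraries, and the bar of the 4 ERAD genes lies at -0.32, left of the band.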

How the data were processed

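RNA was extracted from frozen embryos, amplified as full-length cDNA with a SMART-seq v4 kit and tagmented with Nextera XT, per the labels' protocols. The build mm9 and the tools TopHat, Cufflinks, DESeq and bcl2fastq 1.8.4 are listed, without roles, in the submitters' processing notes. Nothing on the counter, annotation or strand setting is given in the sources used here. Raw counts by gene symbol were deposited by the authors for each library and once more for the series, and the 2 sets were identical. A table of the authors' own comparison was deposited with log2 fold changes, standard errors and a test score, p-values, adjusted p-values and a mean normalized signal, and positive values there stand for higher levels in mutant libraries.

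Counts were analysed in R 4.3.3 with edgeR 4.0.16: filterByExpr (minimum count 10, minimum total 15), TMM scaling and the robust quasi-likelihood F test of mutant against control libraries, without covariates, with Benjamini-Hochberg adjustment over 12257 genes. A call is an adjusted p under 0.05. CPM values use TMM factors, standard errors come from the F statistic, and 95% intervals from the t quantile. The 8 further lists hold 177 genes, of which Hm13 was not found by symbol. The 37 genes and the 8 lists were chosen with earlier results of these data known. Values by library are given for those of the 37 past the threshold, for Atf4, Ddit3, Trib3, Asns, Xbp1, Hspa5, Herpud1, Atf6, Ern1 and Eif2ak3, and for those of the 37 whose groups did not overlap and differed by 0.5 or more (log2). Genes given by library outside this rule are named as such. From each further list the genes past the threshold, or otherwise the 2 of lowest p, are named. The procedure was also run on simulated counts, and no result given here rests on that run. No library was a copy of another of its group, since chi-square per degree of freedom between them was 29.8 to 145. The kit has no molecular identifiers, so counting precision covers counting error only. Promoters come from RefSeq (GRCm38.p6), another build than the authors'. For 31 of 34 windows the last 25 bases were found near the start of a GENCODE transcript.

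Alternatives were other tests (DESeq2 1.42.0; voom with quality weights, limma 3.58.1), other scalings (DESeq2 size factors; TMM without crystallin genes), other filters (none; 5 CPM in 3 libraries), a block for replicate number, each library left out in turn and, chosen after seeing the data, the log2 crystallin share as a covariate.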

Additional observations from a re-analysis of the deposited data

How the results depend on the processing

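Of the 35 tested genes 23 kept their sign under every alternative and 12 did not. No gene of the 35 passed with DESeq2 size factors, TMM without crystallin genes, either other filter or the replicate block. The count of all genes called, 272, was 821 in DESeq2, 801 in limma voom and 776 when the crystallin share was a covariate, and ran from 91 to 479 over the fits that leave out each library in turn. Of the 35, the number called lower in mutant libraries was 1 in DESeq2, 1 in voom and 2 with the covariate (Herpud1 and Edem1), and 0 to 1 with each library left out; 1 was called higher with the covariate (Nupr1). The median of the sensor group was -0.08 at 5 CPM in 3 libraries, where Ern1 is no longer tested. With the covariate the chaperone median was 0.00 and the ERAD median -0.52; the cause was not tested. With each library left out, the median of the amino acid and one-carbon enzymes ran from -0.05 to 0.14 that of the ATF4 factors and effectors from -0.04 to 0.32, and that of the chaperones from -0.04 (without control library 1) to 0.21. Same-numbered libraries had correlations of their deviations from group means of -0.331, -0.183 and 0.246. The highest of any pair was 0.473, between mutant library 2 and control library 1. With 3 libraries in each group, these values cannot settle whether libraries were paired. With the replicate block 122 genes were called. Mbtps2 was also not called with no filter (adjusted p = 0.0567), with the replicate block (0.0790) or in voom (0.0553). At this depth Trib3 and Chac1 lay near the limit of detection.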

Other observations

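In the authors' deposited table, 2 neutral amino acid transporter genes of the ATF4 list were also below an adjusted p of 0.05, both lower in mutant libraries: Slc1a4 (log2 fold change -0.67, adjusted p = 0.0114) and Slc38a2 (-0.82, adjusted p = 0.0254). With all libraries edgeR gave adjusted p of 0.0697 for Slc1a4 and 0.154 for Slc38a2. DESeq2 gave 0.00951 and 0.0245 for the same genes, and edgeR with the crystallin share as a covariate, chosen after seeing the data, gave 0.0343 and 7.7e-04. Without mutant library 2 Slc1a4 had 0.0226. Creb3l1, which encodes a membrane-bound factor cut by the same proteases as ATF6, had a log2 fold change of 2.38 ± 0.72 SE with an adjusted p of 0.149 in edgeR, and Fkbp7, an ER prolyl isomerase, one of -1.60 ± 0.65 with an adjusted p of 0.273. These 4 genes were chosen after their values were seen.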
